A study of Mus musculus with 9 samples.

Results

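The genes of the proteasome, the protease complex that degrades ubiquitin-tagged proteins, were read across 9 RNA-seq libraries of mouse blood monocytes. Genes were taken by name: a symbol beginning with Psma, Psmb, Psmc, Psmd, Psme, Psmf or Psmg and a digit, with no -ps ending, and a level that averaged 1 FPKM or more across all 9 libraries. FPKM is the number of sequenced fragments per length of transcript and per total of mapped fragments, so that levels can be compared between genes. Of 23234 symbols in the deposited tables, 49 fitted the name pattern and 48 passed the minimum. Just inside it was Psmc3ip, with a mean of 1.10 FPKM. Just outside it was Psma8, with a mean of 0.781 FPKM, which in testis takes the place of Psma7.

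All libraries were made from CD11b+ cells sorted from peripheral blood of mice aged 8 months, C57BL/6 by strain, all with Yaa, the Y chromosome with a duplicated segment that promotes lupus-like autoimmunity. The sort on Gr-1, an epitope of Ly6C and Ly6G, gave 4 Gr-1+ libraries (null in 2 libraries, CEBPaCre and CD19Cre in 1 each) and 5 Gr-1- libraries (null, CEBPaCre, CD11cCre, CD19Cre and floxed in 1 each). The null genotype is Fcgr2-/-.Yaa, without the gene of the inhibitory Fc gamma receptor CD32. The other genotypes carry Fcgr2 fl/fl.Yaa, alone (floxed) or with a Cre driver: CEBPaCre, whose promoter is active in myeloid progenitors, CD11cCre, active in dendritic cells and part of the monocytes, and CD19Cre, active in B cells. No group without Yaa was analysed here, and every genotype other than null had 1 library in a subset. Nothing in the labels says which libraries came from the same mouse or how many mice were pooled, so p-values measure the spread between these libraries, which may be technical in part.

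The proteasome core particle is a stack of outer alpha rings and inner beta rings. Among its beta subunits, Psmb6, Psmb7 and Psmb5 carry the proteolytic sites of the constitutive form. Interferon gamma induces Psmb9, Psmb10 and Psmb8, which take the places of Psmb6, Psmb7 and Psmb5 in newly built particles and give the immunoproteasome, known for cutting peptides for MHC class I molecules. Interferon gamma also induces Psme1 and Psme2, the subunits of the PA28 activator cap. The regulatory particle has a base with an ATPase ring (Psmc1 to Psmc6) and a lid, binds ubiquitin chains and feeds unfolded protein into the core. By role, the 48 genes comprised 14 of the constitutive core (7 alpha, 4 structural beta and 3 catalytic beta subunits), 3 immuno catalytic subunits, 2 PA28 subunits and 17 of the regulatory particle (6 ATPases, 3 scaffold or ubiquitin receptor subunits of the base and 8 of the lid). Another 7 encode assembly chaperones (Psmg1 to Psmg4 for the core, Psmd5, Psmd9 and Psmd10 for the base). The others were the activators Psme3 and Psme4, the core-binding regulator Psmf1, the thymus-specific core subunit Psmb11 and Psmc3ip, a meiotic recombination factor that shares only the name.

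The start regions of 4 genes named below are shown, all of them with a match to a marked motif. Psmb8 and Psmb5 are an immuno subunit and the constitutive subunit it replaces. Psme1 is the PA28 subunit whose pattern differed from that of Psme2, and Psmg4 is a core chaperone that was higher in Gr-1+ libraries. The windows of Psmb9, Psmb10, Psme2, Psmd6 and Psma7, which are not shown, held none of the marked motifs. The windows are those of RefSeq on GRCm38.p6, with 250 bases before and 50 bases after the annotated start, 300 in all, read 5′ to 3′ on the gene's strand. Capitals mark matches to an interferon regulatory factor motif (GAAANNGAA, in Psme1 on the reverse strand and in Psmg4), an interferon gamma activation motif known as GAS (TTCNNNGAA, in Psmb8) and a core antioxidant response motif (TGACNNNGC, in Psmb5). Psmb8 lies at chr17:34197945-34198244 (plus strand), Psme1 at chr14:55578244-55578543 (plus strand), Psmb5 at chr14:54617946-54618245 (minus strand) and Psmg4 at chr13:34162714-34163013 (plus strand).
Psmb8: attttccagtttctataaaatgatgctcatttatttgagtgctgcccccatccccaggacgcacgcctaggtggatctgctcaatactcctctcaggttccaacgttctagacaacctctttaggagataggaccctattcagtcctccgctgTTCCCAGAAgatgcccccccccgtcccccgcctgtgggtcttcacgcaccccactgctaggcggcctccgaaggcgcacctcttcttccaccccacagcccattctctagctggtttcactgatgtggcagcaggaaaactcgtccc
Psmb5: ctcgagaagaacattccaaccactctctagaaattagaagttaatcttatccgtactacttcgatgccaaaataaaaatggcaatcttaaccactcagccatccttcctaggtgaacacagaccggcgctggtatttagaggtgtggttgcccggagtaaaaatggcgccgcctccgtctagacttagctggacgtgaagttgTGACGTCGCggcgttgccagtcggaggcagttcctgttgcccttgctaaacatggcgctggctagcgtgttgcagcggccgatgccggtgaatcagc
Psme1: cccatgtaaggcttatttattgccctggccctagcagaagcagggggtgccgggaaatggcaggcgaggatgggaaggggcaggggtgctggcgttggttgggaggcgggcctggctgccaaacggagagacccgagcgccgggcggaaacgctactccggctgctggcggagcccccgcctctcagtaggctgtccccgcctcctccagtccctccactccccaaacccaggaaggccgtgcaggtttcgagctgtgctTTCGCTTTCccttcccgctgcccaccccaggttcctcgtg
Psmg4: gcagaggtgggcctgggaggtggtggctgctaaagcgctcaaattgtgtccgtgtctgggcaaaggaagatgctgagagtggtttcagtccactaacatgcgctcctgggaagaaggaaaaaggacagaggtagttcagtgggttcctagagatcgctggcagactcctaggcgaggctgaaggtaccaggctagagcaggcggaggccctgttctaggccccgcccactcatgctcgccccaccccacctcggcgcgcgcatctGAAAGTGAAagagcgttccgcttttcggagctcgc

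Counting the first of the 50 bases as 1 and the base before it as -1, the matches began at -97 in Psmb8, -47 in Psmb5, 11 in Psme1 and 16 in Psmg4. Windows were present for 41 of the 48 genes (44 windows), against 32851 windows of all genes. Searched on both strands, the interferon regulatory factor motif was in 7 of 44 windows (15.9%), against 8.56% of all windows. The GAS motif was in 3 (6.82%, against 8.30% of all windows) and the antioxidant response motif in 6 (13.6%, against 12.4%). Of the 6 windows of the immuno and PA28 genes, 1 held the first motif and 1 the second. A match is a stretch of letters and was not tested for binding.

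Some facts of the libraries stand beside every result. Fcgr2b, the gene the labels say is deleted, had 200.7 and 105.9 FPKM in the null Gr-1+ libraries, 148.4 in CEBPaCre Gr-1+ and 195.2 in CD19Cre Gr-1+. In Gr-1- libraries it had 144.8 FPKM in null, 83.05 in CEBPaCre, 92.88 in CD11cCre, 105.4 in CD19Cre and 74.95 in floxed. The deletion is therefore not visible in the level of this gene, the part of it that was removed was not analysed here, and each genotype name below means the libraries labelled so. The CD19Cre libraries stood apart: 84 ribosomal protein genes held 1.99% of the summed FPKM in the Gr-1+ one and 2.28% in the Gr-1- one, against 3.68% to 7.74% in the other libraries. All 17 monocyte markers examined were above 0 in every library, among them Csf1r and Itgam. Itgam, the gene of the sort marker CD11b, moved with the label classes compared below: it had 185.7, 170.0 and 135.9 FPKM in null and 184.5 and 179.5 FPKM in CEBPaCre, against 61.7 and 68.3 FPKM in CD19Cre and 66.1 FPKM in floxed, without overlap (log2 difference 1.34 ± 0.21, limma adjusted p = 0.306). In CD11cCre Gr-1-, which is in neither class, Itgam had 156.7 FPKM. How many of all genes are likewise without overlap between the classes was not counted. The part of Itgam in the label-class results was not tested. The sum over 14 neutrophil markers was 876.3 to 2696 FPKM in Gr-1+ libraries and 74.99 to 156.4 FPKM in Gr-1- libraries. That over 12 NK cell markers was 1.71 to 4.63 FPKM in Gr-1+ libraries and 25.2 to 497.4 FPKM in Gr-1- libraries. Over 9 B cell markers it was 10.51 to 72.3 FPKM in Gr-1+ libraries and 46.9 to 158.2 FPKM in Gr-1- libraries. The part of these cells in the differences below was not tested, and in bulk RNA fewer cells of a type and less RNA per cell cannot be told apart. Depth is unknown, since these files give FPKM and no counts.

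All 48 genes together held 0.807% to 1.17% of the summed FPKM in Gr-1+ libraries and 0.768% to 1.09% in Gr-1- libraries. Over the 9 libraries, the highest mean of a core gene was that of the alpha subunit Psma7 (350.0 FPKM), and the lowest that of the catalytic subunit Psmb7 (60.6 FPKM). The immuno subunit Psmb8 averaged 337.8 FPKM, above each of the 3 constitutive catalytic subunits (Psmb6 159.0 FPKM, Psmb5 137.6 FPKM, Psmb7 60.6 FPKM). Psmb10 and Psmb9 averaged 120.6 and 119.8 FPKM, and the PA28 subunits Psme2 and Psme1 306.8 and 194.6 FPKM. In the regulatory particle, means ran from 29.0 FPKM for the ATPase Psmc6 and 29.35 FPKM for the scaffold Psmd1 to 132.2 FPKM for the lid subunit Psmd8. Psmd4, the ubiquitin receptor of the base, averaged 123.7 FPKM, and the lid subunit Psmd12 39.9 FPKM. The activators outside the interferon response were lower, with 49.6 FPKM for the nuclear PA28 subunit Psme3 and 6.53 FPKM for Psme4, which caps the core without ATP. Psmf1 averaged 10.3 FPKM, the chaperones ran from 8.99 FPKM (Psmd9) to 37.3 FPKM (Psmg4), and Psmb11 averaged 2.79 FPKM.

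Each constitutive catalytic subunit had its own pattern across the libraries. Psmb5, the chymotrypsin-like subunit, had 155.6 and 118.5 FPKM in the null Gr-1+ libraries, 163.3 in CEBPaCre Gr-1+ and 128.9 in CD19Cre Gr-1+. In Gr-1- libraries it had 109.4 FPKM in null, 126.5 in CEBPaCre, 131.6 in CD11cCre, 172.8 in CD19Cre and 132.0 in floxed. These ranges overlapped, and no genotype was highest or lowest in both subsets. Psmb6, the caspase-like subunit, had 122.5 and 102.3 FPKM in null Gr-1+, 156.1 in CEBPaCre Gr-1+ and 331.4 in CD19Cre Gr-1+. In Gr-1- libraries Psmb6 had 87.2 FPKM in null, 109.3 in CEBPaCre, 136.1 in CD11cCre, 275.1 in CD19Cre and 111.0 in floxed. CD19Cre was thus the highest library for Psmb6 in each subset. Psmb7, the trypsin-like subunit, had 77.8 and 76.4 FPKM in null Gr-1+, 96.8 in CEBPaCre Gr-1+ and 35.8 in CD19Cre Gr-1+. In Gr-1- libraries Psmb7 had 57.2 FPKM in null, 59.8 in CEBPaCre, 41.3 in CD11cCre, 42.0 in CD19Cre and 58.1 in floxed. The CD19Cre Gr-1+ library had the lowest Psmb7 of all 9.

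The interferon-induced catalytic subunits were lowest in null in both subsets. Psmb8 had 214.5 and 222.2 FPKM in null Gr-1+, 366.7 in CEBPaCre Gr-1+ and 513.6 in CD19Cre Gr-1+. In Gr-1- libraries Psmb8 had 151.4 FPKM in null, 269.8 in CEBPaCre, 390.3 in CD11cCre, 585.8 in CD19Cre and 325.9 in floxed. Null was lowest and CD19Cre highest in both subsets. Psmb9 had 85.4 and 103.1 FPKM in null Gr-1+, 160.8 in CEBPaCre Gr-1+ and 123.3 in CD19Cre Gr-1+. In Gr-1- libraries Psmb9 had 64.4 FPKM in null, 116.3 in CEBPaCre, 120.2 in CD11cCre, 126.4 in CD19Cre and 178.2 in floxed. Null was again lowest, but the highest value was in CEBPaCre among Gr-1+ and in floxed among Gr-1- libraries. Psmb10 had 119.9 and 97.3 FPKM in null Gr-1+, 150.2 in CEBPaCre Gr-1+ and 128.8 in CD19Cre Gr-1+. In Gr-1- libraries Psmb10 had 75.6 FPKM in null, 100.9 in CEBPaCre, 111.8 in CD11cCre, 176.7 in CD19Cre and 123.9 in floxed. The order of null below the others held for Psmb10 too.

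Both PA28 subunits form one ring, but among Gr-1+ libraries their levels were not lowest in the same genotype. Psme1 had 179.9 and 164.9 FPKM in null Gr-1+, 279.9 in CEBPaCre Gr-1+ and 148.1 in CD19Cre Gr-1+. In Gr-1- libraries Psme1 had 138.4 FPKM in null, 199.6 in CEBPaCre, 222.2 in CD11cCre, 181.2 in CD19Cre and 237.1 in floxed. The lowest Psme1 was in CD19Cre among Gr-1+ libraries and in null among Gr-1- libraries. Psme2 had 216.3 and 249.3 FPKM in null Gr-1+, 385.6 in CEBPaCre Gr-1+ and 382.0 in CD19Cre Gr-1+. In Gr-1- libraries Psme2 had 177.2 FPKM in null, 271.6 in CEBPaCre, 252.9 in CD11cCre, 440.8 in CD19Cre and 385.2 in floxed. Psme2 was lowest in null in both subsets.

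**Figure D1:**
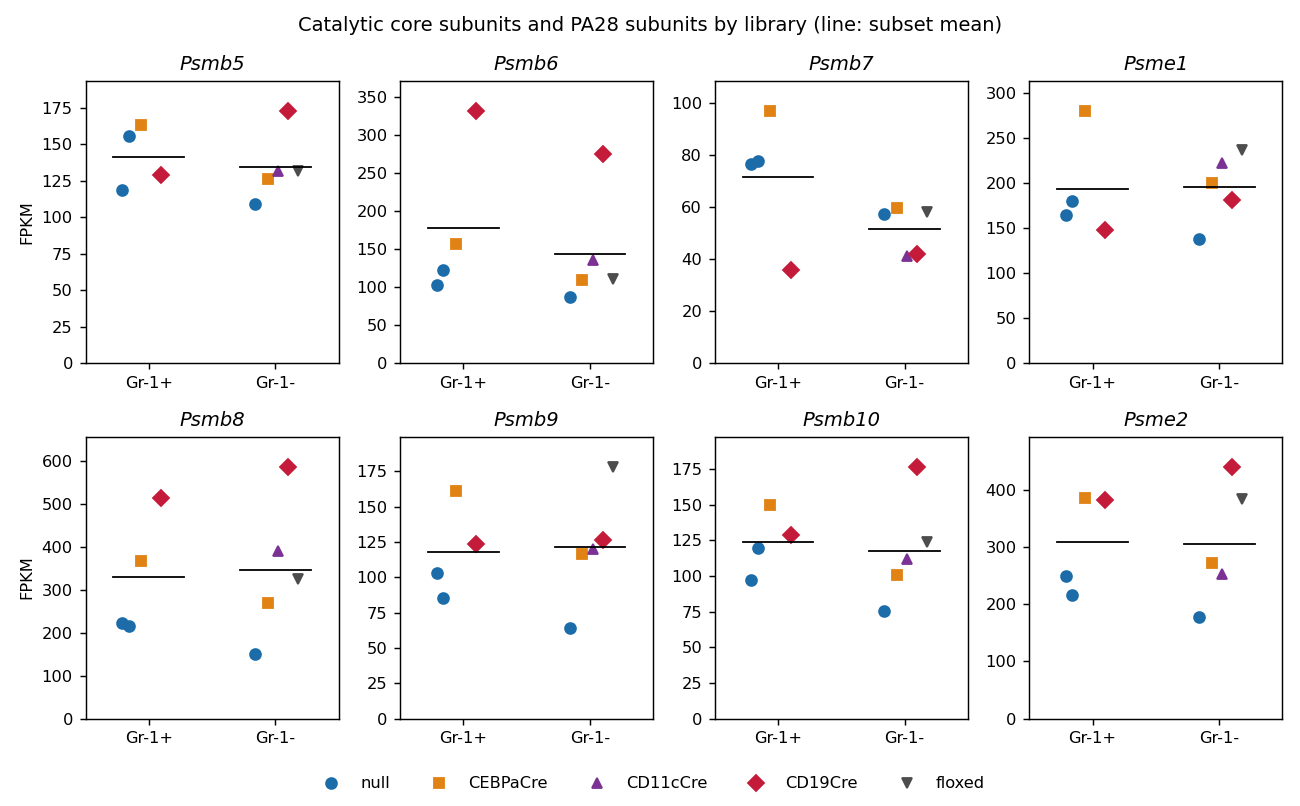
FPKM (vertical axes, from 0) of the 3 constitutive catalytic subunits, the 3 immuno catalytic subunits and the PA28 subunits in each library, with Gr-1+ at the left and Gr-1- at the right of each panel; symbols give the genotype and lines the mean of the subset. Psmb8 is lowest in null and highest in CD19Cre in both subsets, from 151.4 to 585.8 FPKM, while the means of the subsets lie close to each other.

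Between the subsets, 3 of the 48 genes were higher in Gr-1+ than in Gr-1- libraries (limma, Benjamini-Hochberg adjusted p at or under 0.05), against 8.84% of all 10436 genes tested, and 1 was lower, against 5.95%. The 3 are Psmd6 of the lid, the core chaperone Psmg4 and Psma7, and the 1 that was lower is Psmc3ip, which is no proteasome subunit. Psmd6 had 72.9, 67.4, 73.2 and 72.0 FPKM in the Gr-1+ libraries (null in both replicates, CEBPaCre, CD19Cre). In Gr-1- libraries it had 41.9 FPKM in null, 45.7 in CEBPaCre, 39.5 in CD11cCre, 54.6 in CD19Cre and 40.6 in floxed. The groups did not overlap, with means of 71.4 ± 2.69 FPKM in Gr-1+ (SD, n = 4) and 44.5 ± 6.13 FPKM in Gr-1- libraries (SD, n = 5), a log2 difference of 0.68 ± 0.17 (SE, adjusted p = 0.0204).

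Psmg4, which with Psmg3 helps alpha rings assemble, had 53.7 and 42.1 FPKM in null Gr-1+, 57.2 in CEBPaCre Gr-1+ and 46.1 in CD19Cre Gr-1+. In Gr-1- libraries it had 28.6 FPKM in null, 26.3 in CEBPaCre, 16.8 in CD11cCre, 39.6 in CD19Cre and 25.5 in floxed. Here too the groups did not overlap, and the log2 difference was 0.88 ± 0.24 (SE, adjusted p = 0.0289). Psma7 had 388.9 and 347.8 FPKM in null Gr-1+, 535.0 in CEBPaCre Gr-1+ and 589.9 in CD19Cre Gr-1+. In Gr-1- libraries Psma7 had 178.5 FPKM in null, 259.0 in CEBPaCre, 242.4 in CD11cCre, 356.0 in CD19Cre and 252.7 in floxed. The CD19Cre Gr-1- value lay inside the Gr-1+ range, and each Gr-1+ library was above the Gr-1- library of its genotype. Psma7 averaged 465.4 ± 115.5 FPKM in Gr-1+ (SD, n = 4) and 257.7 ± 63.6 FPKM in Gr-1- libraries (SD, n = 5), a log2 difference of 0.85 ± 0.25 (SE, adjusted p = 0.0444). Psmc3ip averaged 0.526 ± 0.199 FPKM in Gr-1+ (SD, n = 4) and 1.55 ± 0.487 FPKM in Gr-1- libraries (SD, n = 5), without overlap, and fell by 0.73 on the log2 scale (SE 0.20, adjusted p = 0.0296). Psmc3ip passed the minimum of 1 FPKM only through the Gr-1- libraries, where it is high, so its call depends on the filter and is given as a description. At a level this low the scale of log2(FPKM + 1) understates a change.

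These 4 calls sat close to the threshold. Without null Gr-1+ replicate 1, CEBPaCre Gr-1+, null Gr-1- or CEBPaCre Gr-1-, 0 of the 48 genes were called (limma, with 1128 to 1233 of all genes still called), while 1 was without CD11cCre Gr-1- (against 12.3% of all genes) and 2 were without floxed Gr-1- (against 14.0%). With genotype as a replicate block 7 genes were higher, against 16.0% of all genes, adding Psma4 and Psma5 of the alpha ring, Psmd13 of the lid and the chaperone Psmg1, and 1 was lower. Without both CD19Cre libraries the higher genes were also 7 (against 10.4% of all genes), namely Psma4, Psma7, Psmb1, Psmd6, Psmd8, Psme4 and Psmg4, and none was lower. With library weights 8 were higher, against 13.0% of all genes. Rescaling the libraries left 3 higher and 1 lower, but moved the calls over all genes to 1011 higher and 958 lower (median-of-ratios) or 858 higher and 972 lower (a common FPKM sum), against 923 higher and 621 lower as deposited. It also moved the median log2 difference of all genes to -0.01 or -0.05, against 0.09 as deposited, so that a difference near 0 has no fixed sign.

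Differences of the constitutive core were mostly positive and those of the interferon-induced genes lay about 0. The median log2 difference was 0.38 over the 14 core genes, 13 of them positive, 0.19 over the 17 genes of the regulatory particle, and 0.20 over all 48, against 0.09 over all genes tested. After median-of-ratios scaling the medians were 0.26 (core), 0.07 (regulatory particle) and -0.12 (the 5 immuno and PA28 genes, with 0 positive), and after scaling to a common FPKM sum 0.22, 0.03 and -0.16. Of the core, 1 gene passed the test (Psma7), and of the regulatory particle 1 (Psmd6). Next in order of p, without passing, were Psma4 (log2 difference 0.59 ± 0.18, adjusted p = 0.0519), Psmd8 (0.53 ± 0.21, adjusted p = 0.118), Psmb4 (0.52 ± 0.21, adjusted p = 0.130), Psmd13 (0.52 ± 0.22, adjusted p = 0.146), Psmb1 (0.50 ± 0.22, adjusted p = 0.161) and Psmc6 (0.50 ± 0.22, adjusted p = 0.165). Psma4 had 109.0 to 146.5 FPKM in Gr-1+ libraries and 70.7 to 93.4 FPKM in Gr-1- libraries, with no overlap. Libraries of the subsets did not overlap for 4 genes higher in Gr-1+ (Psma3, Psma4, Psmd6 and Psmg4), against 10.2% of all genes, and for 1 lower (Psmc3ip), against 6.26%. Gr-1+ was above Gr-1- within each of null, CEBPaCre and CD19Cre for 19 of 48 genes, against 31.8% of all genes: 8 of 14 core genes, 8 of 17 of the regulatory particle and 0 of the 5 immuno and PA28 genes. In this count 2 null Gr-1+ libraries are set against 1 null Gr-1- library.

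None of Psmb8, Psmb9, Psmb10, Psme1 and Psme2 passed the test between subsets, and their median log2 difference was 0.00, from -0.04 to 0.11. Psmb8 averaged 329.3 ± 141.4 FPKM in Gr-1+ (SD, n = 4) and 344.7 ± 160.9 FPKM in Gr-1- libraries (SD, n = 5), a fold of 0.981 with a 95% interval of 0.538 to 1.79. For Psmb9 the fold was 0.997 (95% interval 0.635 to 1.57) and for Psmb10 1.08 (0.733 to 1.59). For Psme1 it was 0.974 (0.669 to 1.42) and for Psme2 1.03 (0.645 to 1.64). Their intervals reach down to folds of 0.538 to 0.733 and up to folds of 1.42 to 1.79, so equal levels are not shown. Whether the core and the interferon-induced genes differ from each other in their subset difference was not tested. With genotype as a replicate block all 5 were positive in sign and none passed: Psmb8 0.29 and Psmb9 0.34 on the log2 scale.

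Taken genotype by genotype, the interferon-induced genes changed sign, as did some genes of the core and the lid. In null and in CEBPaCre, Gr-1+ was above Gr-1- for all 5: the log2 difference for Psmb8 was 0.50 and 0.55 for the null Gr-1+ libraries against the null Gr-1- library, and 0.44 within CEBPaCre. In CD19Cre, Gr-1+ was below Gr-1- for all 5, with log2 differences of -0.19 for Psmb8, -0.04 for Psmb9, -0.45 for Psmb10, -0.29 for Psme1 and -0.21 for Psme2. The same change of sign was seen in Psma1, Psma2, Psmb1, Psmb5 and Psmb7 of the core and in Psmd3 of the lid. Psmb5 had 0.504 and 0.113 in null and 0.365 in CEBPaCre, against -0.421 in CD19Cre. The share of all genes with this change was not counted. All of these are single libraries, and the difference between genotypes was not tested as such. By label class (null and CEBPaCre, whose labels place the deletion in all or in myeloid cells, against CD19Cre and floxed, whose labels leave the gene intact there), the interaction with subset passed for 0 of the 48 genes (limma), against 0.0863% of all genes. Its estimates for the 5 ran from 0.13 ± 0.69 (Psmb8) to 0.77 ± 0.57 (Psme1) on the log2 scale, with none of the 48 genes under an unadjusted p of 0.05.

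**Figure D2:**
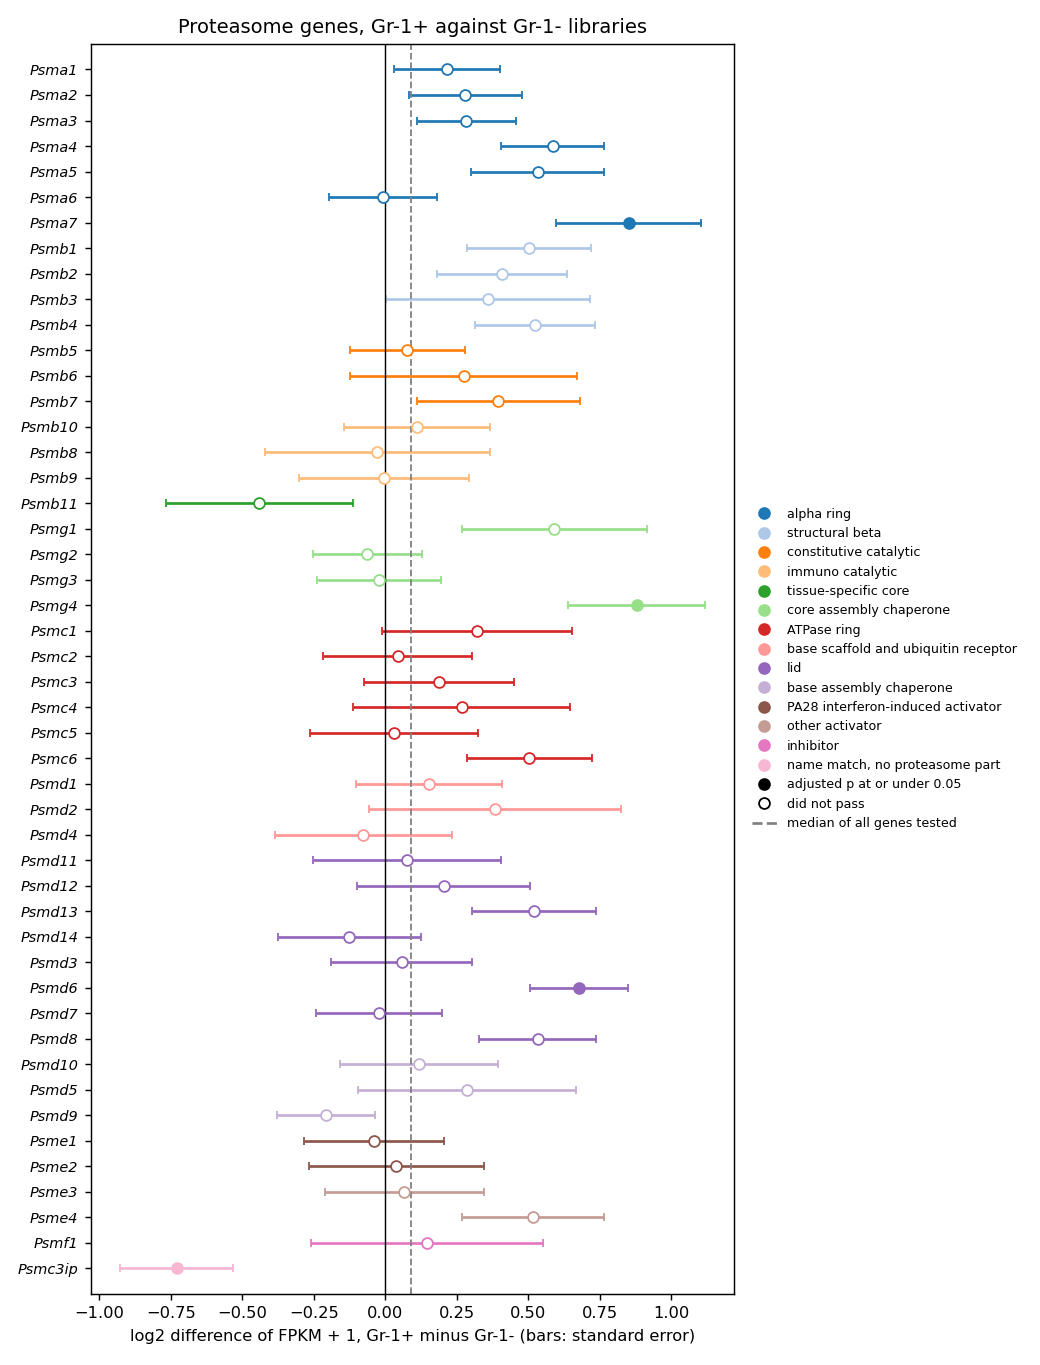
Log2 difference of FPKM + 1, Gr-1+ minus Gr-1- (horizontal axis), with its standard error for each of the 48 genes, grouped by role; filled points passed the test and the dashed line is the median of all genes tested. Filled points are Psma7, Psmg4 and Psmd6 at the right and Psmc3ip at the left, and the immuno catalytic and PA28 genes lie between -0.04 and 0.11.

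Since an immuno subunit takes the place of its constitutive counterpart, the FPKM ratio of each pair was read per library. Psmb8 to Psmb5 was 1.38 and 1.88 in null Gr-1+, 2.25 in CEBPaCre Gr-1+ and 3.99 in CD19Cre Gr-1+. In Gr-1- libraries it was 1.38 in null, 2.13 in CEBPaCre, 2.96 in CD11cCre, 3.39 in CD19Cre and 2.47 in floxed. Subsets overlapped widely, while the 5 libraries classed as deleted (null and CEBPaCre, 1.38 to 2.25) lay below the 3 classed as intact (CD19Cre and floxed, 2.47 to 3.99). Psmb10 to Psmb7 was 1.54 and 1.27 in null Gr-1+, 1.55 in CEBPaCre Gr-1+ and 3.60 in CD19Cre Gr-1+. In Gr-1- libraries it was 1.32 in null, 1.69 in CEBPaCre, 2.71 in CD11cCre, 4.21 in CD19Cre and 2.13 in floxed. Again the deleted libraries (1.27 to 1.69) lay below the intact ones (2.13 to 4.21). The third pair did not follow: Psmb9 to Psmb6 was 0.697 to 1.06 in the deleted libraries, against 0.372 and 0.459 in CD19Cre and 1.61 in floxed. Among the 3 intact libraries 2 are CD19Cre, so that genotype and label class cannot be told apart beyond the single floxed library. For Psme2 to Psme1 the ratio was 1.20 to 1.51 in the deleted libraries and 1.63 to 2.58 in the intact ones, with CD11cCre at 1.14. No test was made on ratios, which combine genes chosen with earlier results known.

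**Figure D3:**
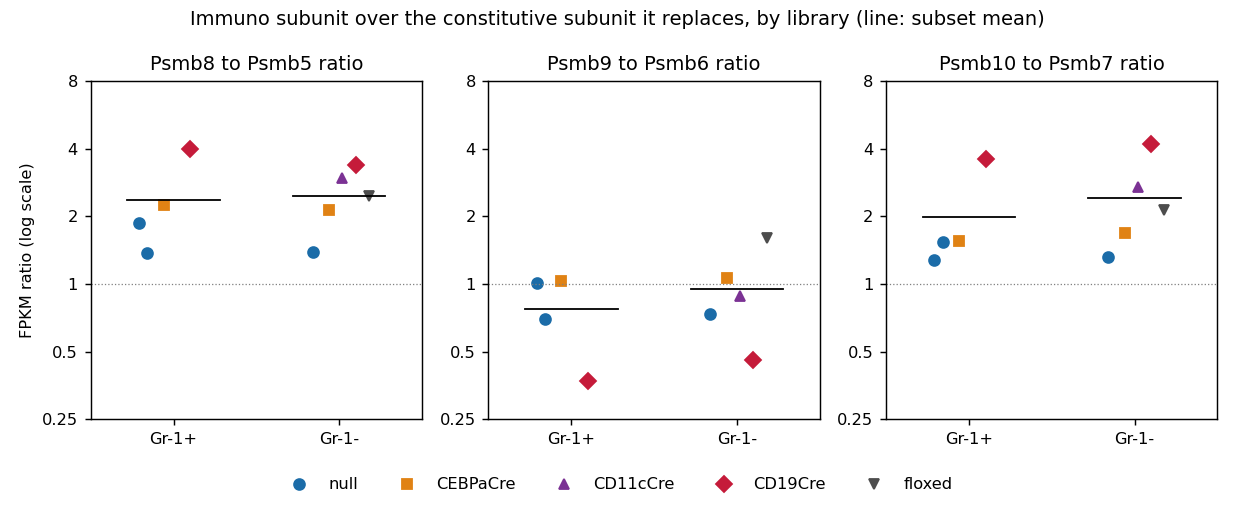
FPKM ratio (log axis) of each immuno catalytic subunit to the constitutive subunit it replaces in each library, with Gr-1+ at the left and Gr-1- at the right; symbols give the genotype and lines the mean of the subset. CD19Cre is highest for Psmb8 to Psmb5 (3.99 and 3.39) and Psmb10 to Psmb7 (3.60 and 4.21) and lowest for Psmb9 to Psmb6 (0.372 and 0.459).

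Between the label classes, with the subset as a covariate and CD11cCre left out, 0 of the 48 genes passed, against 0.0% of all 10429 genes tested (limma). Under an unadjusted p of 0.05 were 13 of the 48 genes (27.1%), 11 lower and 2 higher in the deleted libraries, against 14.1% of all genes. The median log2 difference was -0.34 over the 48 genes and -0.035 over all genes tested. It was -0.11 over the core, -0.45 over the regulatory particle, with 16 of 17 genes negative, and -0.51 over the 5 immuno and PA28 genes. Psmb8 had the smallest p: 244.9 ± 80.1 FPKM in deleted (SD, n = 5) and 475.1 ± 134.1 FPKM in intact libraries (SD, n = 3), a log2 difference of -1.05 ± 0.33 (SE, adjusted p = 0.306). Psmb6 followed with 115.5 ± 26.0 FPKM in deleted (SD, n = 5) and 239.2 ± 114.5 FPKM in intact libraries (SD, n = 3), a log2 difference of -1.08 ± 0.34 (adjusted p = 0.306). The next were the ATPase Psmc4 (-0.99 ± 0.33, adjusted p = 0.307), Psmf1 (-1.03 ± 0.37, adjusted p = 0.307), the chaperone Psmg1 (-0.66 ± 0.24, adjusted p = 0.308), Psme4 (0.61 ± 0.23, adjusted p = 0.308), the lid subunit Psmd12 (-0.74 ± 0.28, adjusted p = 0.308) and the structural subunit Psmb3 (-0.86 ± 0.33, adjusted p = 0.313). Psme2 (-0.72 ± 0.28, adjusted p = 0.317), Psmb7 (0.65 ± 0.26, adjusted p = 0.324), the lid subunit Psmd11 (-0.77 ± 0.32, adjusted p = 0.326) and the ATPase Psmc5 (-0.68 ± 0.28, adjusted p = 0.330) came after them. Of the 48 genes, only Psme4 had deleted libraries (5.21 to 11.6 FPKM) that did not overlap the intact ones (4.05 to 4.79 FPKM). The share of all genes without such overlap was not counted, so this is given as a description.

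This comparison rested on 3 libraries of the intact class. Without floxed Gr-1-, which leaves CD19Cre alone as intact, 22 of the 48 genes were called, 20 lower in deleted (against 16.8% of all genes) and 2 higher (Psmb7 and Psme4, against 7.68%). Without both CD19Cre libraries, which leaves floxed alone, 0 of the 48 were called, the median of the 48 was 0.10 against 0.23 over all genes, and the groups parted: the regulatory particle had a median of 0.19 with 16 of 17 genes positive, while the 5 immuno and PA28 genes had a median of -0.69, all negative. Psmb8 then had a log2 difference of -0.69 and Psmb6 of -0.18, neither called. Others with a small p lost their direction there: Psmf1 was at 0.14, Psmd11 at 0.19, Psmd12 at 0.02 and Psmc5 at 0.10, while Psmc4 and Psmb3 were at -0.01. In that fit the lone intact library is assumed to vary like the other group. With library weights 10 genes were called, all lower in deleted (against 3.19% of all genes): Psmb3, Psmb6, Psmc1, Psmc4, Psmc5, Psmd2, Psmd5, Psmd11, Psmd12 and Psmf1.

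Read by genotype, the null libraries were lowest in both subsets for 13 of the 48 genes, against 9.82% of all genes, and highest for 0, against 2.42%. The 13 included 4 of the 5 immuno and PA28 genes (Psmb8, Psmb9, Psmb10 and Psme2), Psma7, the catalytic subunit Psmb6 and Psmf1. After median-of-ratios scaling, a setting added after the values were seen, 6 of the 48 were lowest in null, against 5.85% of all genes, and of the 5 these were Psmb8 and Psme2. The null libraries also held the most erythroid RNA: the sum over 7 erythroid markers was 2575 and 2518 FPKM in null Gr-1+, against 296.3 to 619.4 in the other Gr-1+ libraries, and 3715 FPKM in null Gr-1-, against 501.0 to 1773 in the other Gr-1- libraries. The part of erythroid RNA in the null values was not tested.

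In the CD19Cre libraries 25 of the 48 genes were the highest of both subsets (52.1%), against 31.0% of all genes, and 2 were the lowest (Psmb11 and Psme4), against 13.1%. The 25 comprised 13 of the 17 genes of the regulatory particle, 5 of the 14 core genes (Psma5, Psma7, Psmb2, Psmb3 and Psmb6) and 1 of the 5 immuno and PA28 genes (Psmb8). After median-of-ratios scaling the counts of highest genes were 22 of 48 and 12 of 17, against 20.6% of all genes, and 6 of the 48 were lowest (Psmb4, Psmb7, Psmb11, Psme1, Psme4 and Psmg2), against 22.8%. Psmc4, an ATPase of the base, had 191.3 FPKM in CD19Cre Gr-1+, against 58.6 to 78.8 FPKM in the other Gr-1+ libraries, and 141.9 FPKM in CD19Cre Gr-1-, against 53.0 to 67.7 FPKM in the other Gr-1- libraries. Psmd2, a scaffold of the base, had 226.7 FPKM in CD19Cre Gr-1+, against 64.2 to 92.3 FPKM in the other Gr-1+ libraries, and 143.8 FPKM in CD19Cre Gr-1-, against 40.8 to 100.6 FPKM in the others. Psmf1 had 25.1 FPKM in CD19Cre Gr-1+, against 5.94 to 7.47 FPKM, and 16.6 FPKM in CD19Cre Gr-1-, against 5.52 to 9.85 FPKM. These 3 genes were among 7 of the 48 (against 3.33% of all genes) that were over 1 unit of log2 above the mean of the other libraries in both subsets. The other 4 were the core genes Psmb3 and Psmb6, the ATPase Psmc1 and the chaperone Psmd5.

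Opposite to them, Psme4 had 4.16 FPKM in CD19Cre Gr-1+, against 8.27 to 11.6 FPKM in the other Gr-1+ libraries, and 4.05 FPKM in CD19Cre Gr-1-, against 4.79 to 6.17 FPKM in the other Gr-1- libraries. Psmb7 had a log2 difference of -1.20 (CD19Cre Gr-1+ minus the mean of the other Gr-1+ libraries) and of -0.34 (Gr-1-). Across the 48 genes, the deviation of CD19Cre in Gr-1+ and that in Gr-1- correlated with Pearson's r = 0.87, against 0.593 across all genes tested, where the points share the genotype and the 2 libraries. The 25 highest genes had a median transcript GC content of 49.8%, against 50.7% for the other 23. Library and genotype cannot be told apart here, with 1 CD19Cre library per subset. The B cell gene Cd79a had 1.04 FPKM in CD19Cre Gr-1+ and 16.3 FPKM in CD19Cre Gr-1-, against 0.334 to 29.1 FPKM in the other 7. B2m, the shared chain of MHC class I molecules, had 712.9 FPKM in CD19Cre Gr-1+, against 2872 to 3438 FPKM in the other Gr-1+ libraries. The part of these differences in the proteasome values was not tested.

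**Figure D4:**
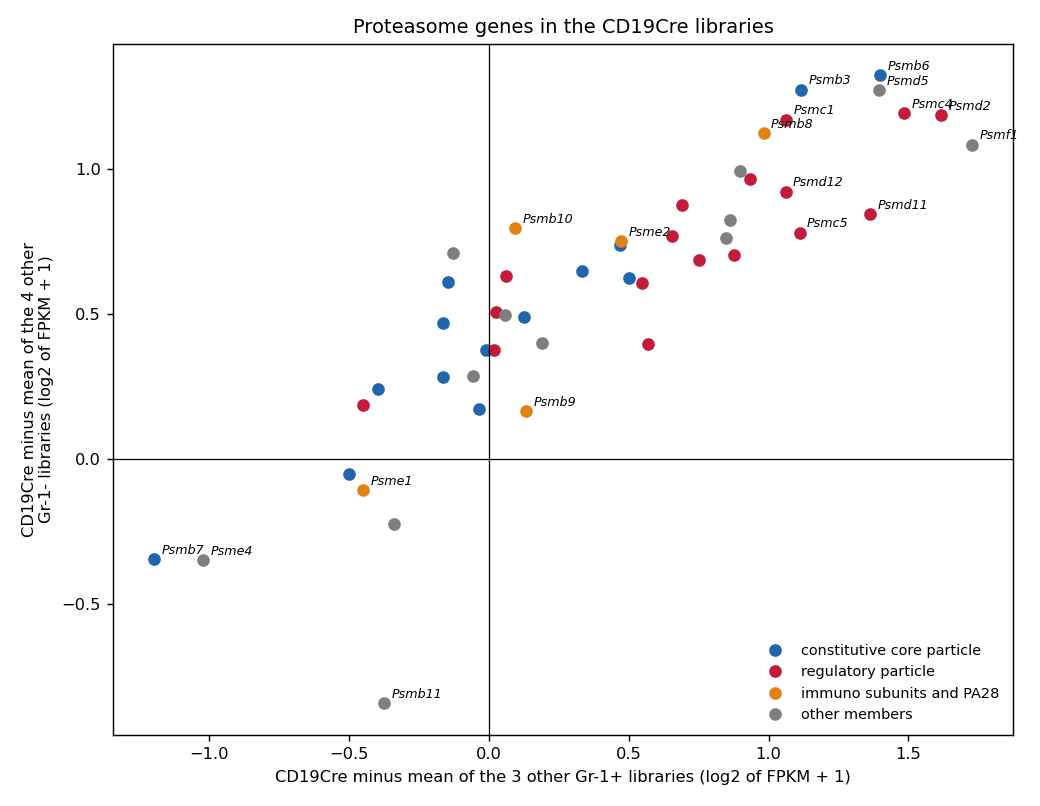
Each of the 48 genes by its log2 difference between CD19Cre and the mean of the other libraries, in Gr-1+ (horizontal axis) and in Gr-1- (vertical axis), coloured by role. Genes of the regulatory particle lie mostly at the upper right, with Psmf1, Psmd2 and Psmc4 over 1 on both axes, and Psmb7 and Psme4 at the lower left.

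Genes that work with the proteasome were read from lists chosen with earlier results of these data known. Of 25 partners tested (ubiquitin genes, deubiquitinases, shuttle and transcription factors), 0 passed between subsets (limma) against 8.84% of all genes higher and 5.95% lower, with a median log2 difference of 0.18. Those with the smallest p were Nfe2l1, the transcription factor that raises proteasome genes when the protease is inhibited (-0.79 ± 0.30, adjusted p = 0.120), and Shfm1, the small lid subunit that the name rule does not find (0.56 ± 0.22, adjusted p = 0.121). By label class the smallest p of this list belonged to Ubb, a polyubiquitin gene, which had 3245 and 2439 FPKM in the CD19Cre Gr-1+ and Gr-1- libraries, against 778.4 to 1191 FPKM in the other 7, and Rps27a, a ubiquitin fusion with a ribosomal protein, which had 111.7 and 115.6 FPKM, against 159.1 to 603.1 FPKM. Both had an adjusted p of 0.308.

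Of 16 genes of MHC class I presentation, against 8.84% of all genes higher and 5.95% lower, 1 was higher in Gr-1+ (the chaperone Canx, 0.70 ± 0.18, adjusted p = 0.0234) and 4 were lower, the class I heavy chains H2-D1 (-0.94 ± 0.27, adjusted p = 0.0370), H2-K1 (-1.18 ± 0.26, adjusted p = 0.0110), H2-Q4 (-1.14 ± 0.21, adjusted p = 0.00421) and H2-Q6 (-1.37 ± 0.29, adjusted p = 0.00855). H2-K1 had 487.4 to 681.3 FPKM in Gr-1+ libraries and 711.7 to 1477 FPKM in Gr-1- libraries, without overlap, while Psmb8 and Psmb9 overlapped throughout. Reads of H2 genes cannot be assigned with certainty among near-identical copies. The peptide transporter Tap1 had 25.9 and 37.4 FPKM in null Gr-1+, against 53.0 to 70.6 in the other Gr-1+ libraries, and 17.3 FPKM in null Gr-1-, against 39.2 to 55.5 in the other Gr-1- libraries. Set against the same shares, of 18 genes tested of an interferon gamma list 2 were higher in Gr-1+ (Gbp3 1.59 ± 0.40, adjusted p = 0.0189; Gbp7 1.28 ± 0.31, adjusted p = 0.0163) and 1 was lower (Cd274 -2.97 ± 0.25, adjusted p = 2.05e-05). Of 20 of a type I interferon list, all with a positive difference and with a median of 1.03 on the log2 scale, 2 were higher (Oasl2 2.05 ± 0.58, adjusted p = 0.0364; Oas2 1.67 ± 0.49, adjusted p = 0.0413). The Gr-1+ libraries were not alike in the type I list. Summed over its 21 genes, it held 1146 FPKM in CEBPaCre Gr-1+, against 207.8 to 500.7 FPKM in the other Gr-1+ libraries. Null Gr-1+ replicate 1, at 207.8 FPKM, lay inside the Gr-1- range of 105.9 to 340.9 FPKM. Neither the interferon gamma list nor the type I list had a gene called by label class.

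Irf1, a transcription factor induced by interferon gamma, had 37.7 and 65.5 FPKM in null Gr-1+, 98.9 in CEBPaCre Gr-1+ and 44.8 in CD19Cre Gr-1+, where CD19Cre lay below 1 of the null libraries. In Gr-1- libraries null was lowest, with 54.75 FPKM, against 76.9 to 124.7 FPKM in the others. Nlrc5, the activator of class I genes, was lowest in CD19Cre among Gr-1+ libraries (3.735 FPKM, against 4.68 to 10.3 FPKM) and in null among Gr-1- libraries (2.30 FPKM, against 5.07 to 8.68 FPKM). By label class the adjusted p was 0.959 for Irf1 and 0.880 for Nlrc5.

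Some of the 48 genes share genomic space with others, and whether fragments were assigned by strand is not given in the sources used here. In GENCODE M21, exons of Psma4, Psmb7, Psmb9, Psmc3, Psmc3ip, Psmd1, Psmd13 and Psme1 overlap exons of a protein-coding gene on the opposite strand. For Psmb9 that gene is Tap1, so without strand the fragments of the pair cannot be told apart, and likewise for the others. The 48 genes lie on 16 chromosomes, with Psmb8 and Psmb9 on chromosome 17 in the MHC and Psmb5, Psme1 and Psme2 on chromosome 14. The start windows of Psmb8 and Psmb9 lie close to each other, and the levels of these genes differed in which genotype was highest.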

How the data were processed

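RNA from sorted cells was amplified with a low-input SMART-Seq kit and sequenced, per the labels' protocols. The authors deposited 1 table of FPKM per library; TopHat2 2.0.8, Cufflinks 2.1.1 and mm9 are named in the submitters' processing notes, while the annotation and the counting of strands are not given in the sources used here. Because FPKM keeps no counts, depth is unknown and no counting interval can be given; 0 columns of per-sample values were left unused. Low-input amplification and assignment to overlapping genes can both move an FPKM value.

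Tested were genes that averaged 1 FPKM or more across all 9 libraries and were above 0 in at least 2 of those fitted, with limma 3.58.1 (R 4.3.3, with a mean-variance trend) on log2(FPKM + 1), so fold changes are on that scale and understate those of low genes. Adjusted p-values are Benjamini-Hochberg over all genes tested, two-sided, with a threshold of 0.05. The subset fit had 4 Gr-1+ and 5 Gr-1- libraries and no covariate. The label-class fit had 5 null or CEBPaCre and 3 CD19Cre or floxed libraries, with subset as covariate and CD11cCre left out, and another fit added their interaction. The fits were tested on simulated data. Deviations from the subset mean correlated at 0.16 to 0.59 for the 4 pairs of libraries of 1 genotype, against -0.38 to 0.25 for other pairs. These ranges overlap, and only the CD19Cre pair (0.59) stood clearly apart. Null Gr-1+ replicate 2 correlated at 0.16 with null Gr-1- and at 0.25 with floxed Gr-1-. An alternative fit took genotype to pair the libraries, as a replicate block. The pairing comes from the genotype in the labels, not from a mouse number. Other alternatives were the pseudocount, the filter, scaling, library weights (statmod 1.5.0) and libraries left out.

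The genes and lists were chosen with earlier results of these data known. Named by rule are Psmb5 to Psmb10, Psme1 to Psme4, Psmf1, the genes called, the 6 next in p in each comparison, the highest and lowest mean of each larger role group, those nearest the minimum, and of the 4 lists the few with the smallest p with Irf1, Nlrc5, Tap1 and B2m; other genes named for their level or for their place in CD19Cre or null were chosen after their values were seen. Some results are not reported here. Sequences are from RefSeq. Values were handled with Python 3.11.15, pandas 2.3.3, scipy 1.17.1 and matplotlib 3.10.9.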

Additional observations from a re-analysis of the deposited data

Results flagged for a closer look

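Within each subset, each of the 48 genes and 22 others named in the text was examined for 1 library far from the rest by Dixon's criterion at the 95% level (140 groups). Chance alone would flag about 1 in 20 groups of normal values, but several of the genes were named for differences that involve CD19Cre, so that this rate does not apply to them. Of the 48 genes, 6 had such a library in Gr-1+ (12.5%, against 8.71% of all genes tested) and 10 in Gr-1- (20.8%, against 7.16%). In all 16 cases it was CD19Cre and the highest value, against 4.50% (Gr-1+) and 3.95% (Gr-1-) of all genes with CD19Cre standing apart at the high end.

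Of the ATPases, Psmc1 had 131.1 FPKM in CD19Cre Gr-1+, against 65.6 for the next library, and 115.5 FPKM in CD19Cre Gr-1-, against 62.8. Psmc4 had 191.3 FPKM in CD19Cre Gr-1+, against 78.8, and 141.9 FPKM in CD19Cre Gr-1-, against 67.7. In CD19Cre Gr-1-, Psmc2 had 82.5 FPKM, against 49.5, Psmc3 98.16 FPKM, against 65.8, and Psmc5 100.4 FPKM, against 65.3. Of the base chaperones, Psmd5 had 57.31 FPKM in CD19Cre Gr-1+, against 23.8, and 45.8 FPKM in CD19Cre Gr-1-, against 24.2, and Psmd10 had 35.9 FPKM in CD19Cre Gr-1-, against 21.8. Of the lid, Psmd11 had 135.6 FPKM in CD19Cre Gr-1+, against 57.1, Psmd12 71.98 FPKM in CD19Cre Gr-1+, against 38.1, and Psmd8 155.0 FPKM in CD19Cre Gr-1-, against 107.8. Of the core, Psmb3 had 485.7 FPKM in CD19Cre Gr-1-, against 217.6, and Psmb6 275.1 FPKM, against 136.1. The regulator Psmf1 had 25.14 FPKM in CD19Cre Gr-1+, against 7.47.

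Outside the 48 genes, the ubiquitin gene Ubb had 3245 FPKM in CD19Cre Gr-1+, against 1191, and 2439 FPKM in CD19Cre Gr-1-, against 1161. Itgam was low in CD19Cre Gr-1+ (61.72 FPKM, against 170.0 for the next library). H2-K1 was high in CEBPaCre Gr-1+ (681.3 FPKM, against 496.8) and low in null Gr-1- (711.7 FPKM, against 1283). The CD19Cre libraries also had the lowest ribosomal protein share (1.99% and 2.28%, against 3.68% to 7.74%), whose part in these values was not tested.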

How the results depend on the processing

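Genes called between subsets (4 of 48, limma) numbered 9 with library weights, 8 with genotype as a replicate block, 7 without both CD19Cre libraries and 0 to 6 with 1 library left out. Over all genes the count was 2376 with weights and 2712 with the block, against 1544. By label class (0 of 48) the count was 10 with weights and 0 to 22 with 1 library left out, and over all genes 673 with weights, 5 without both CD19Cre libraries and 0 to 2551 with 1 left out; the median of the 48 was 0.099 without both CD19Cre libraries, against -0.342. The cause was not tested.

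Some uncalled log2 differences changed sign. Between subsets, median-of-ratios scaling gave Psmb10 -0.00587, Psmb5 -0.041, Psme2 -0.0793 and Psme3 -0.0488, and scaling to a common FPKM sum gave Psmb10 -0.0461, Psmb5 -0.0816, Psme2 -0.12, Psme3 -0.0896 and Psmf1 -0.000126. Weights gave Psmb9 0.045, Psme1 0.0672, Psme3 -0.0992 and Psmf1 -0.135. The replicate block gave Psmb8 0.285, Psmb9 0.343, Psme1 0.184 and Psme3 -0.00544. Without both CD19Cre libraries Psme1 was 0.0519 and Psmf1 -0.0698. With 1 library left out the ranges were -0.0322 to 0.271 (Psmb10), -0.0748 to 0.539 (Psmb6), -0.29 to 0.196 (Psmb8), -0.211 to 0.152 (Psmb9), -0.231 to 0.0734 (Psme1), -0.138 to 0.194 (Psme2), -0.144 to 0.22 (Psme3) and -0.286 to 0.362 (Psmf1).

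By label class, counting CD11cCre among the intact gave Psmc3ip 0.0346, Psme1 -0.0429 and Psmg4 0.103, median-of-ratios scaling Psmd6 0.011 and Psmg4 0.0134, and scaling to a common FPKM sum Psmd6 0.0416 and Psmg4 0.0432. Without both CD19Cre libraries the values were 0.184 (Psmc3ip), 0.098 (Psmc5), 0.19 (Psmd11), 0.0207 (Psmd12), 0.107 (Psmd6), -0.51 (Psme1), 0.493 (Psme3), 0.138 (Psmf1) and 0.0995 (Psmg4), against -1.03 for Psmf1, -0.77 for Psmd11, -0.74 for Psmd12 and -0.68 for Psmc5 with them. With 1 library left out the ranges were -0.358 to 0.0089 (Psmb5), -0.156 to 0.041 (Psmd6), -0.317 to 0.212 (Psme1) and -0.208 to 0.115 (Psmg4). Over the genes named, 587 alternative values kept direction and call, 35 passed the threshold newly, 26 no longer passed and 64 changed sign. Psmd6 had an adjusted p of 0.00381 to 0.0654 over its 17 alternatives, Psmg4 of 0.00452 to 0.0916 and Psma7 of 0.00666 to 0.129. Unknown depth and 1 library for most genotypes in a subset limit every comparison.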
